A study of Homo sapiens with 6 samples.

Results

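The MYC, MAX and MXD network was examined in 786-O cells, a human renal carcinoma line kept in culture, on Affymetrix arrays. The members, 10 of 18132 genes measured, were MYC, MYCN, MYCL, MAX, MNT, MGA, MLX, MLXIP, MXD1 and MXD3, and every probe set whose only gene symbol was 1 of these was taken, which gave 41 of the 49293 probe sets tested. The 3 shERCC6L arrays came from cells given lentivirus with an shRNA against ERCC6L, and the 3 shNC arrays from cells with a negative control shRNA. All cells carried the alterations of the 1 line, and the labels give neither the number of hairpins nor whether replicates were separate infections, so the p-values rest on the spread between arrays that may be technical replicates.

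MYC is a basic helix-loop-helix leucine zipper protein that binds DNA only as a dimer with MAX. The dimer binds the E-box and activates genes of ribosome assembly, metabolism and proliferation. MXD proteins, MNT and MGA bind the same sites with MAX and repress. MXD proteins and MNT do so mostly through the SIN3-HDAC corepressor, and MGA in the complex PRC1.6. MLX is the partner of MLXIP (MondoA) and MLXIPL (ChREBP), which respond to glucose metabolites and control TXNIP and lipid genes. In renal carcinoma cells with lost VHL, such as 786-O, MYC activity is known to be enhanced by the hypoxia factor EPAS1.

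The target transcript ERCC6L read 97.59, 97.49 and 97.83 on the shERCC6L arrays, against 239.9, 244.3 and 261.4 on the shNC arrays. Array medians were 60.02 to 61.21 in shERCC6L and 60.35 to 61.54 in shNC. Correlations between arrays were 0.9986 to 0.999 within groups and 0.9931 to 0.9938 across groups. All 8 measured markers of renal carcinoma cells, PAX8, PAX2 and EPAS1 among them, reached the median level of all genes, while 1 of 4 blood markers and 0 of 3 endothelial and 0 of 3 fibroblast markers did. Of the 8, 2 were higher and 3 lower in shERCC6L, and the fibroblast marker COL1A1 fell by 0.384 on the log2 scale. EPAS1 had 988.0, 984.7 and 983.0 in shERCC6L and 1284, 1276 and 1246 in shNC, a log2 fold change of -0.36 ± 0.03 (SE, adjusted p = 4.1e-05), and its part in the values of MYC was not tested. Of all probe sets, 28.7% passed an adjusted p of 0.05 (limma, Benjamini-Hochberg over all probe sets), so a single call among the members has a high background.

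MYC was lower and its partner MAX was higher in shERCC6L cells, and MLX, the centre of the MondoA branch, was higher as well. MXD3 was lower on 1 of its 3 probe sets. Of the 41 member probe sets, 12 were higher and 3 lower, where 16.8% and 11.9% of all probe sets were. All 12 rises came from 2 genes, MAX and MLX, which hold 18 of the probe sets. On the brightest probe set of each gene, 2 of the 10 members were higher and 2 lower, near the 18.2% and 13.4% of all genes. At least 1 probe set passed for 5 of the 10 members and for 38% of all genes, with a mean of 4.1 probe sets per member and 2.48 per gene. Most of the calls lay among brighter probe sets: of the 20 at or above the median level of all probe sets 11 were higher and 3 lower, against 29.6% and 18.5% of all probe sets of that level, and of the 21 below it 1 was higher. The median log2 change was 0.019 over the member probe sets and -0.006 over all probe sets. The median absolute log2 change was 0.083 over the member probe sets and 0.070 over all. The groups did not overlap, with shERCC6L higher, for 14 member probe sets and 22.3% of all, and with shERCC6L lower for 4 member probe sets and 18.7% of all.

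**Figure D1:**
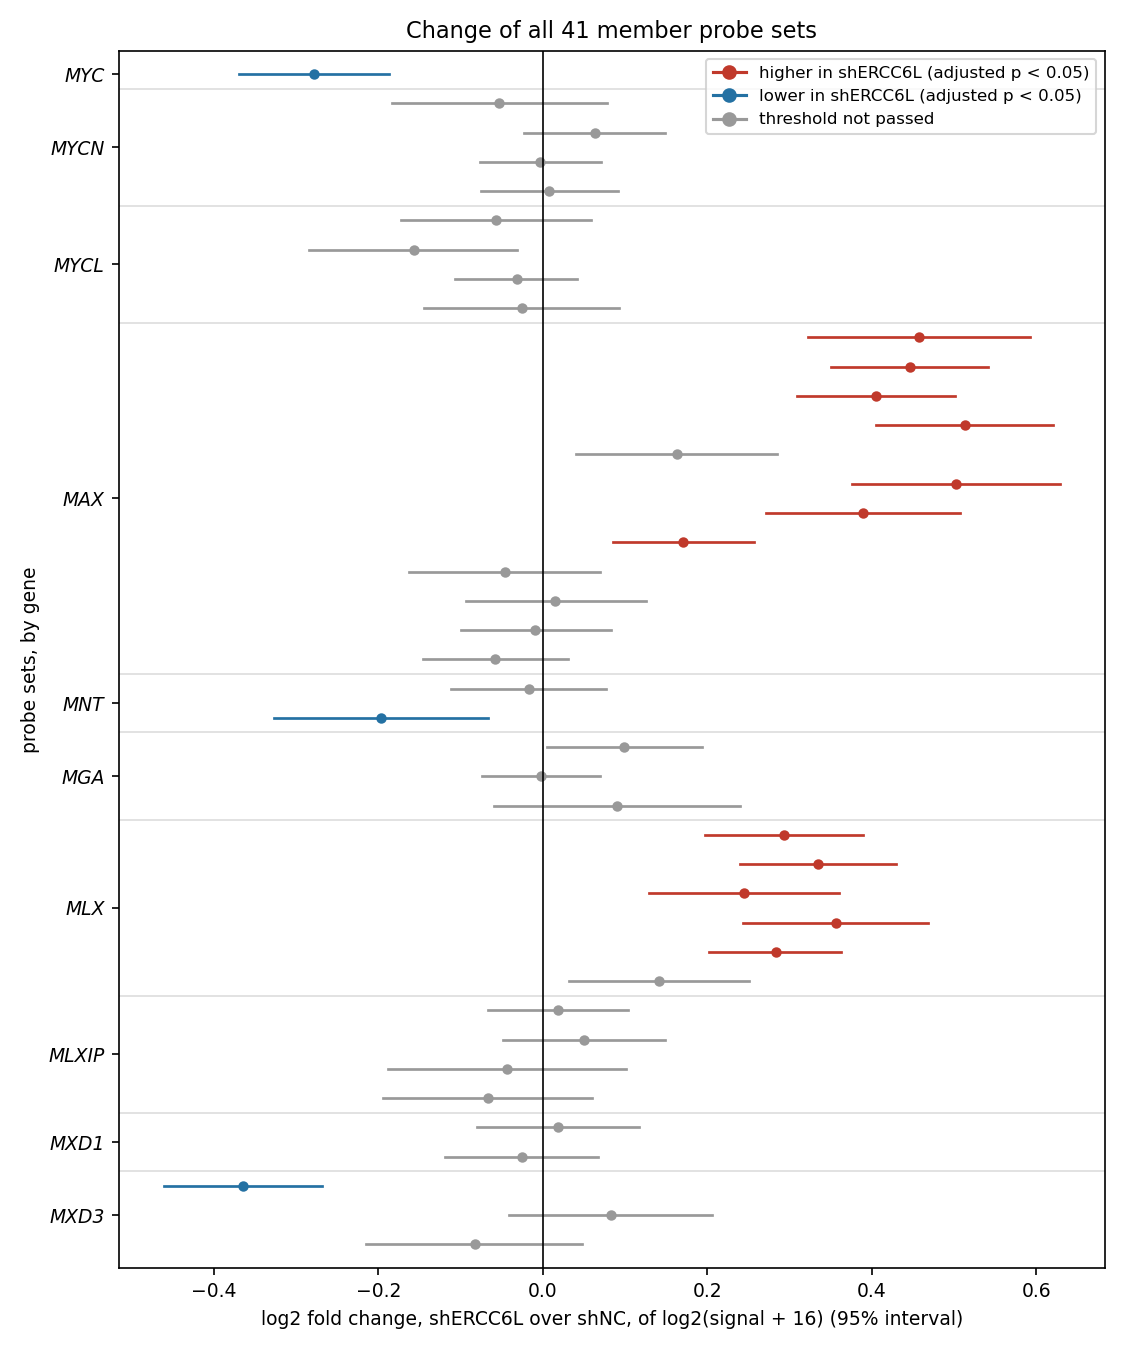
Log2 fold change of log2(signal + 16), shERCC6L over shNC, of each of the 41 member probe sets (points) with its 95% interval (lines), grouped by gene and ordered by level from the top within a gene. The 12 probe sets in red, all of MAX or MLX, were higher in shERCC6L, and the 3 in blue, of MYC, MNT and MXD3, were lower.

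The E-box of the network, CACGTG, reads the same on both strands and was searched in RefSeq promoter windows of GRCh38.p14, from 250 bases before to 50 bases after a transcript start. A gene with several starts can have several windows, and 27305 genes had 35116. The E-box was present in 2 of 12 windows of the 9 members that had one, those of MLX and MNT, and in 7.26% of all windows. MXD4, a family gene outside the members, held it as well. The sites are shown because these genes carry a network binding motif at their own start, with the E-box in capitals.
MLX: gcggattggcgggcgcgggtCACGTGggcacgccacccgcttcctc
MNT: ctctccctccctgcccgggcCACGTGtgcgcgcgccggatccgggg
MXD4: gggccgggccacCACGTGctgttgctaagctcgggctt
The windows shown lie at the outermost start of their gene. The E-box began 50 bases before the start of MLX (chr17:42567030-42567075, plus strand), 193 bases before that of MNT (chr17:2401228-2401273, minus strand) and 238 bases before that of MXD4 (chr4:2262322-2262359, minus strand). The windows of MAX and MXD3 did not hold these letters, which says nothing of binding outside them.

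MYC, on chromosome 8 from 127735434 to 127742951, is measured by 1 probe set. Its signal was 760.8, 799.4 and 808.2 on the shERCC6L arrays, against 929.7, 995.5 and 957.5 on the shNC arrays. The highest shERCC6L array lay below the lowest shNC array. The mean was 789.4 ± 25.2 in shERCC6L and 960.9 ± 33.0 in shNC (SD, n = 3 each), a log2 fold change of -0.28 ± 0.04 (SE, adjusted p = 0.00093), or 1.213-fold lower. In bulk RNA, fewer cells with a transcript and less transcript per cell cannot be told apart.

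The paralogues MYCN and MYCL, which bind the same sites with MAX and act mainly in neural and lung tissue, did not pass on any of 4 probe sets each. Signals ran from 5.702 to 49.58 over the MYCN probe sets and from 13.48 to 32.91 over those of MYCL, in a table whose array lower quartiles were 17.05 to 17.87. Whether such values exceed background is unknown, as the table has no detection calls. The brightest MYCN probe set had 40.18, 44.22 and 49.58 in shERCC6L and 47.10, 44.42 and 48.96 in shNC, so the groups overlapped, with a 95% interval for the log2 change of -0.18 to 0.08. One MYCL probe set did not overlap between the groups, at 25.24, 24.82 and 22.88 in shERCC6L and 32.91, 27.75 and 26.43 in shNC. Its log2 fold change was -0.157 ± 0.055 (SE, adjusted p = 0.066).

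MAX, the obligate partner on chromosome 14, rose on 7 of its 12 probe sets, by 0.17 to 0.51 on the log2 scale with adjusted p-values of 0.0088 or less. The lowest of these rises was 0.102 with a pseudocount of 64. Its brightest probe set read 436.2, 431.4 and 506.9 in shERCC6L, against 320.9, 334.8 and 329.6 in shNC. Every shERCC6L array lay above every shNC array, and the shERCC6L arrays spread more. The log2 fold change was 0.46 ± 0.06 (SE, adjusted p = 0.00053), or 1.373-fold. The MAX probe set with the largest change had 184.1, 174.4 and 195.9 in shERCC6L and 121.3, 130.4 and 122.2 in shNC, a log2 fold change of 0.51 ± 0.05 (SE, adjusted p = 8.1e-05).

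Of the 5 MAX probe sets that did not pass, 4 lay below the median level. These 4 had log2 fold changes of -0.06 to 0.02, and their groups overlapped. The other, 11754160_x_at, did not overlap between groups, at 155.0, 170.3 and 153.1 in shERCC6L and 151.1, 137.2 and 134.0 in shNC (log2 fold change 0.16 ± 0.05, adjusted p = 0.053). With all 12 averaged, MAX rose by 0.25 ± 0.02 (SE, adjusted p = 6.5e-05). Several MAX probe sets may share a transcript and are not replicates. Their probe sequences were not used here, so which transcripts they match was not checked.

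**Figure D2:**
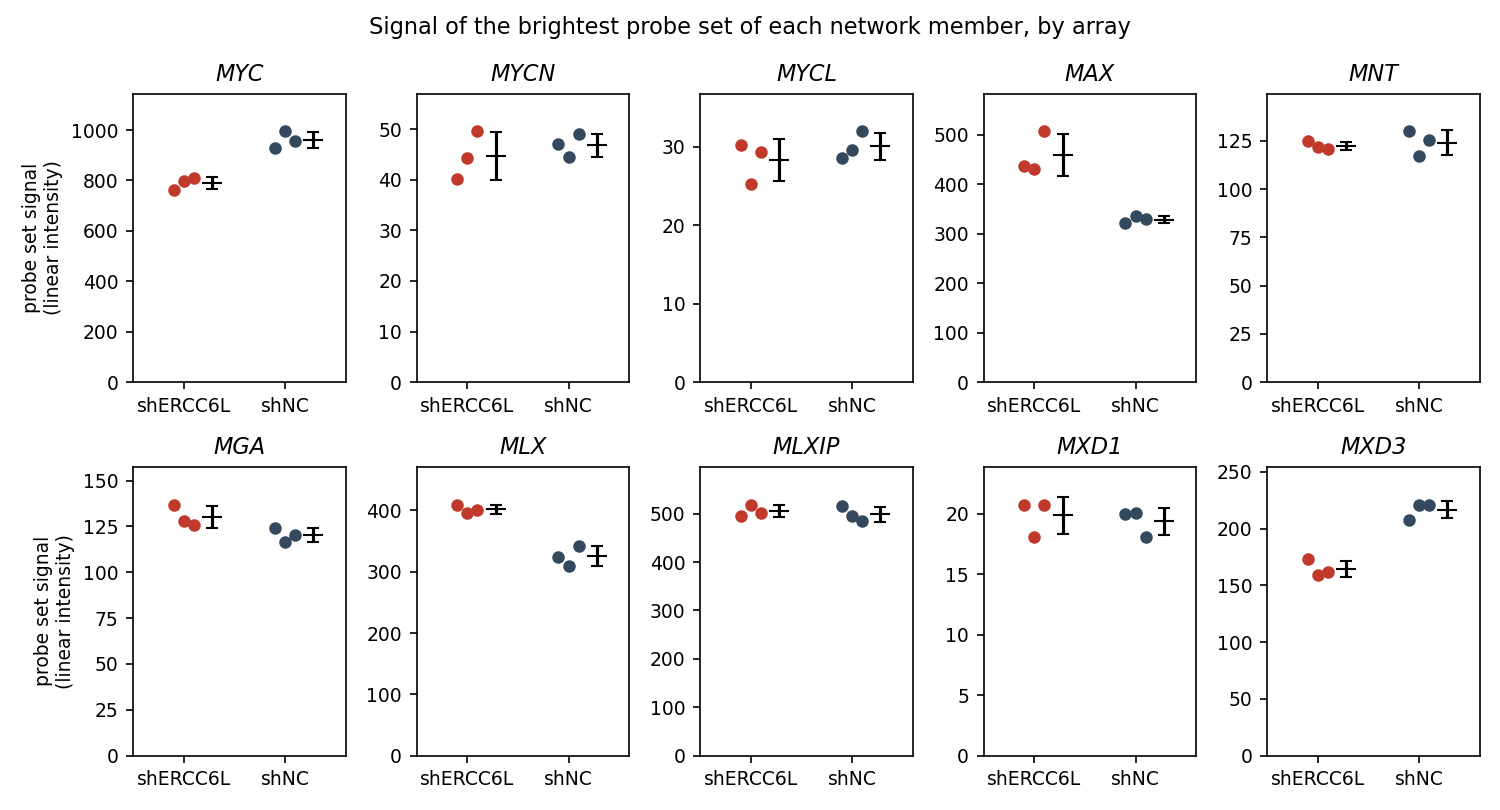
Linear signal of the brightest probe set of each of the 10 members on the 3 shERCC6L arrays (red) and the 3 shNC arrays (dark); black bars give the mean ± SD. MYC and MXD3 lay lower and MAX, MLX and, without passing the test, MGA lay higher on every shERCC6L array than on every shNC array, while the groups overlapped for MYCN, MYCL, MNT, MLXIP and MXD1.

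MYC relative to MAX was taken within each array as the difference of log2(signal + 16) between their brightest probe sets, a difference that shows unequal change and not which transcript is more abundant. It was 0.781, 0.866 and 0.656 in shERCC6L, against 1.489, 1.528 and 1.494 in shNC. The groups stood apart by more than the whole range of either. The difference between the means was -0.74 on the log2 scale (0.768 ± 0.11 in shERCC6L and 1.504 ± 0.021 in shNC, SD, n = 3 each), a ratio 1.665-fold lower. The exact 2-sided permutation test gave p = 0.1, the smallest that 3 against 3 arrays allow. MYC alone lay lower, and MAX alone higher, on every shERCC6L array than on every shNC array. The separation of their difference and this p-value follow from those values and are no further support. With each gene's probe sets averaged the difference was -0.52.

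**Figure D3:**
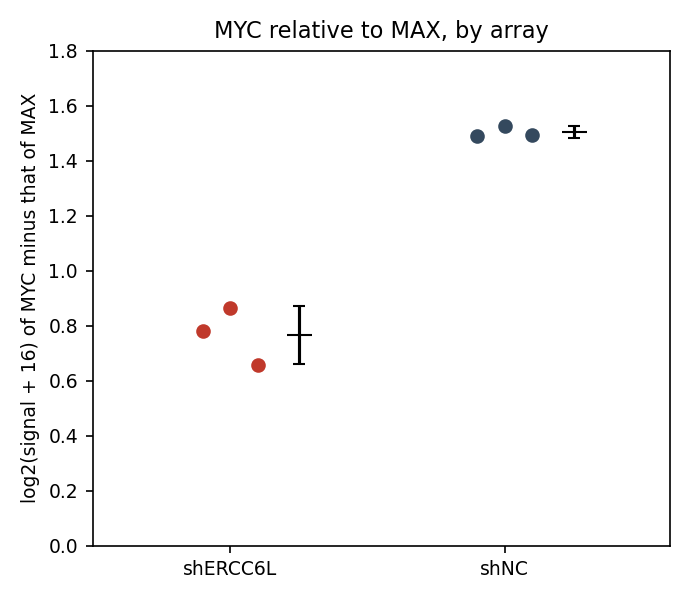
Log2(signal + 16) of MYC minus that of MAX on each array, on the brightest probe set of each gene, for 3 shERCC6L arrays (red) and 3 shNC arrays (dark), with the mean ± SD in black. The shERCC6L arrays lay between 0.656 and 0.866 and the shNC arrays between 1.489 and 1.528.

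The repressive partners of MAX did not move together. MXD3, which is known to be expressed in proliferating cells at S phase, had 172.8, 159.0 and 161.9 on its brightest probe set in shERCC6L, against 207.9, 221.1 and 220.6 in shNC. The groups stood apart, with a log2 fold change of -0.365 ± 0.042 (SE, adjusted p = 0.00027). The other 2 MXD3 probe sets, at log2 fold changes of 0.08 and -0.08, did not pass and overlapped, and with all 3 averaged the change was -0.12 ± 0.04 (adjusted p = 0.032). MXD1, a repressor induced on differentiation, had signals of 8.847 to 20.75 over its 2 probe sets and log2 fold changes of 0.02 and -0.03, with 95% intervals within -0.12 and 0.12.

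MNT, the broadly expressed repressor of the family, gave 2 answers. Its probe set 11752262_a_at read 100.3, 93.85 and 92.51 in shERCC6L and 123.6, 107.0 and 105.7 in shNC, and fell by 0.20 ± 0.06 (log2, SE, adjusted p = 0.031). The other, brighter one read 124.7, 121.8 and 120.6 in shERCC6L and 130.0, 116.9 and 125.4 in shNC, and overlapped (log2 fold change -0.02, 95% interval -0.11 to 0.08). The fall on the first did not pass without shERCC6L replicate 2 (adjusted p = 0.095), without shERCC6L replicate 3 (0.089), without shNC replicate 1 (0.065) or with a pseudocount of 64 (0.053), nor did MNT with both probe sets averaged (0.088).

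MGA, a large protein that pairs with MAX in the repressive complex PRC1.6, did not pass on any of 3 probe sets. Its brightest probe set read 136.9, 128.0 and 125.6 in shERCC6L and 124.1, 116.4 and 120.6 in shNC. The groups just missed overlap, with a log2 fold change of 0.10 ± 0.04 (SE, adjusted p = 0.11).

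The 2 remaining MXD genes, MXI1 (also called MXD2) and MXD4, are no members but share the role of MXD3, and both were lower. MXD4 fell on 3 of 5 probe sets. Its brightest probe set had 96.24, 97.30 and 79.39 in shERCC6L and 127.7, 112.7 and 124.9 in shNC, a log2 fold change of -0.37 ± 0.07 (SE, adjusted p = 0.0047), or -0.19 with its probe sets averaged. MXI1 fell on 3 of 5 as well, with 687.0, 693.1 and 695.3 on the brightest in shERCC6L and 760.0, 737.4 and 780.9 in shNC (log2 fold change -0.13 ± 0.03, adjusted p = 0.020). In the fit with 1 probe set per gene, MXI1 did not pass without shERCC6L replicate 2 (adjusted p = 0.053), shNC replicate 1 (0.051) or shNC replicate 3 (0.071).

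MLX, on chromosome 17, rose on 5 of its 6 probe sets, by 0.24 to 0.36 on the log2 scale with adjusted p-values of 0.0064 or less. The brightest read 409.5, 395.3 and 401.2 in shERCC6L, against 324.8, 309.0 and 342.2 in shNC. No shERCC6L array fell as low as the highest shNC array, and the log2 fold change was 0.29 ± 0.04 (SE, adjusted p = 0.00093), or 1.225-fold. The sixth, at signals of 25.7, 26.8 and 22.62 in shERCC6L and 22.64, 19.86 and 21.09 in shNC, had a log2 fold change of 0.14 ± 0.05 (adjusted p = 0.057). With all 6 averaged MLX rose by 0.28 ± 0.03 (adjusted p = 0.00017).

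Its glucose-sensing partners did not pass the test. MLXIP had 494.5, 518.7 and 502.1 on its brightest probe set in shERCC6L and 516.4, 494.3 and 484.7 in shNC, so the groups overlapped (log2 fold change 0.02, 95% interval -0.07 to 0.10). None of the 4 MLXIP probe sets passed, with log2 fold changes of -0.07 to 0.05. MLXIPL, the liver and fat paralogue outside the members, did not pass on any of 4 probe sets, which changed by -0.10 to 0.03.

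Genes known to be bound or controlled by the network were then counted on lists, with the brightest probe set per gene and p-values adjusted over 18132 genes. Of all genes, 18.2% were higher and 13.4% lower in shERCC6L, and of the brighter genes, with a mean level no lower than the median, 32.8% and 19.6%. The median log2 change of all genes was -0.011. Brighter genes made up 30 of 32 and 31 of 33 measured genes of the MYC-activated lists and 20 of 26 MYC-repressed genes. They made up 13 of 20 MondoA, ChREBP and MLX targets, 37 of 40 MYC cofactors and regulators, and all 19 SIN3-HDAC genes and 13 MGA partners. For lists made up mostly of brighter genes, the shares of brighter genes are the closer reference. The lists were drawn up with earlier results of these data known, and no list was tested against other genes.

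Of 32 measured MYC-activated genes of the nucleolus and translation, 21 were higher (65.6%) and 2 lower (6.25%), and the median log2 change was 0.235. The 4 with the smallest p were PPAN, NOP2, POLR3G and EIF4E. PPAN, a factor of large ribosomal subunit assembly, had 206.4, 203.7 and 217.1 in shERCC6L and 155.0, 158.3 and 162.1 in shNC (log2 fold change 0.37 ± 0.04, adjusted p = 8.2e-05). NOP2, an rRNA methyltransferase, rose by 0.38 ± 0.04 (SE), and POLR3G, a subunit of RNA polymerase III, by 0.60 ± 0.07. The rise of POLR3G was 0.316 with a pseudocount of 64 and 0.395 with its probe sets averaged. EIF4E, the factor that binds the mRNA cap, went the other way, with 1347, 1389 and 1417 in shERCC6L and 1759, 1714 and 1827 in shNC (log2 fold change -0.35 ± 0.04, adjusted p = 1.3e-04). The nucleolar proteins NCL and NPM1, at 0.02 and 0.07, did not pass.

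Of 33 MYC-activated genes of metabolism and the cell cycle, 16 were higher (48.5%) and 4 lower (12.1%), and the median log2 change was 0.109. SLC1A5, the glutamine carrier, led by p and fell: it had 698.7, 753.2 and 716.5 in shERCC6L and 1122, 1109 and 1116 in shNC (log2 fold change -0.62 ± 0.04, adjusted p = 4.3e-06). SLC7A5, the carrier of leucine and other large amino acids, fell by 0.48 ± 0.04 (SE). TFAM, which packages mitochondrial DNA, rose by 0.41 ± 0.04 and the spermidine synthase gene SRM by 0.34 ± 0.04. ODC1, the enzyme before it in polyamine synthesis, rose by 0.18, while CDK4 and LDHA, at -0.02 and 0.03, did not pass. Both lists together held 65 measured genes, of which 37 were higher and 6 lower.

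The E-box was present in 11 of 39 windows of the first list and 14 of 45 of the second (28.2% and 31.1%, against 7.26% of all windows). Among windows of MYC-activated genes it was present in 15 of 44 for genes that were higher, 3 of 13 for genes that were lower and 7 of 27 for genes that did not pass. EIF4E and SLC7A5 were lower and SRM was higher in shERCC6L. Binding was not measured, and a link between the motif and the direction of change was not tested. The sites before the outermost start of EIF4E, SLC7A5 and SRM are printed, with the E-box in capitals.
SLC7A5: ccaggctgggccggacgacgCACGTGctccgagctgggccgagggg
EIF4E: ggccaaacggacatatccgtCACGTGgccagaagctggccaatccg
SRM: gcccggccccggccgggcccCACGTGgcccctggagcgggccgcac
They lie at chr16:87869612-87869657, chr4:98929180-98929225 and chr1:11060192-11060237, all on the minus strand, with the E-box starting 130, 72 and 199 bases before the start. EIF4E held another one 225 bases before its start. The E-box of SLC1A5 lay 50 bases before an internal transcript start, which is 1301 bases inside the gene.

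Of 26 genes that MYC is known to repress, 7 were higher (26.9%) and 11 lower (42.3%), with a median log2 change of -0.064. On this list CDKN1C, a cyclin-dependent kinase inhibitor, had 203.4, 211.0 and 192.4 in shERCC6L and 426.6, 390.9 and 402.9 in shNC, a log2 fold change of -0.95 ± 0.05 (SE, adjusted p = 1.1e-06). The stress gene GADD45B fell by 0.635 ± 0.036 (SE; -0.393 with probe sets averaged), DDIT3, which encodes the stress factor CHOP, by 0.295 ± 0.033 and the cadherin gene CDH2 by 0.26 ± 0.03. HMOX1 rose by 0.34. CDKN1A, at 0.11 (adjusted p = 0.042), did not pass with the replicate block (0.058), quantile normalization (0.16), a pseudocount of 1 (0.081) or without any one array other than shNC replicate 1 (0.069 to 0.14). The count of 7 higher was 3 without shERCC6L replicate 2, without shERCC6L replicate 3, or without shNC replicate 1, 2 without shNC replicate 3, and 3 under a pseudocount of 1.

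Among 20 target genes of MondoA, ChREBP and MLX, 9 were lower (45%) and 3 higher (15%), with a median log2 change of -0.094. TXNIP, a thioredoxin-binding protein that limits glucose uptake, had 523.1, 514.7 and 517.6 in shERCC6L and 956.2, 953.4 and 939.6 in shNC. The groups were far apart for their spread, with a log2 fold change of -0.85 ± 0.03 (SE, adjusted p = 2.7e-07). ARRDC3, a related arrestin-domain gene, had 282.2, 256.1 and 301.3 in shERCC6L and 483.6, 509.2 and 494.6 in shNC (log2 fold change -0.793 ± 0.055, adjusted p = 9.4e-06). PFKFB3, an enzyme that drives glycolysis, fell by 0.30 ± 0.04 (SE), while ELOVL6, a fatty acid elongase, rose by 1.02 ± 0.05. ARRDC4, a MondoA target like TXNIP, did not pass, at 0.06. The count of 9 lower was 5 without shNC replicate 3 and 5 with probe sets averaged, and that of 3 higher was 1 without shNC replicate 3.

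TXNIP is known to be controlled through a carbohydrate response element, a pair of E-box-like sites. A motif of that layout, 2 copies of CACGNG with 5 bases between them, searched on both strands, was present in a window of TXNIP and in 20 of the 27305 genes with a window (0.0732%). It began 88 bases before the start of TXNIP (chr1:145996631-145996687, minus strand) and is shown in capitals.
TXNIP: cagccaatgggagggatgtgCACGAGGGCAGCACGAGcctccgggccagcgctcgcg
A window of PFKFB3 held an E-box 108 bases before an internal transcript start, which lies 58011 bases inside the gene. The other members of this list with an E-box in a window were ARRDC4, KLF11 and PKLR.

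**Figure D4:**
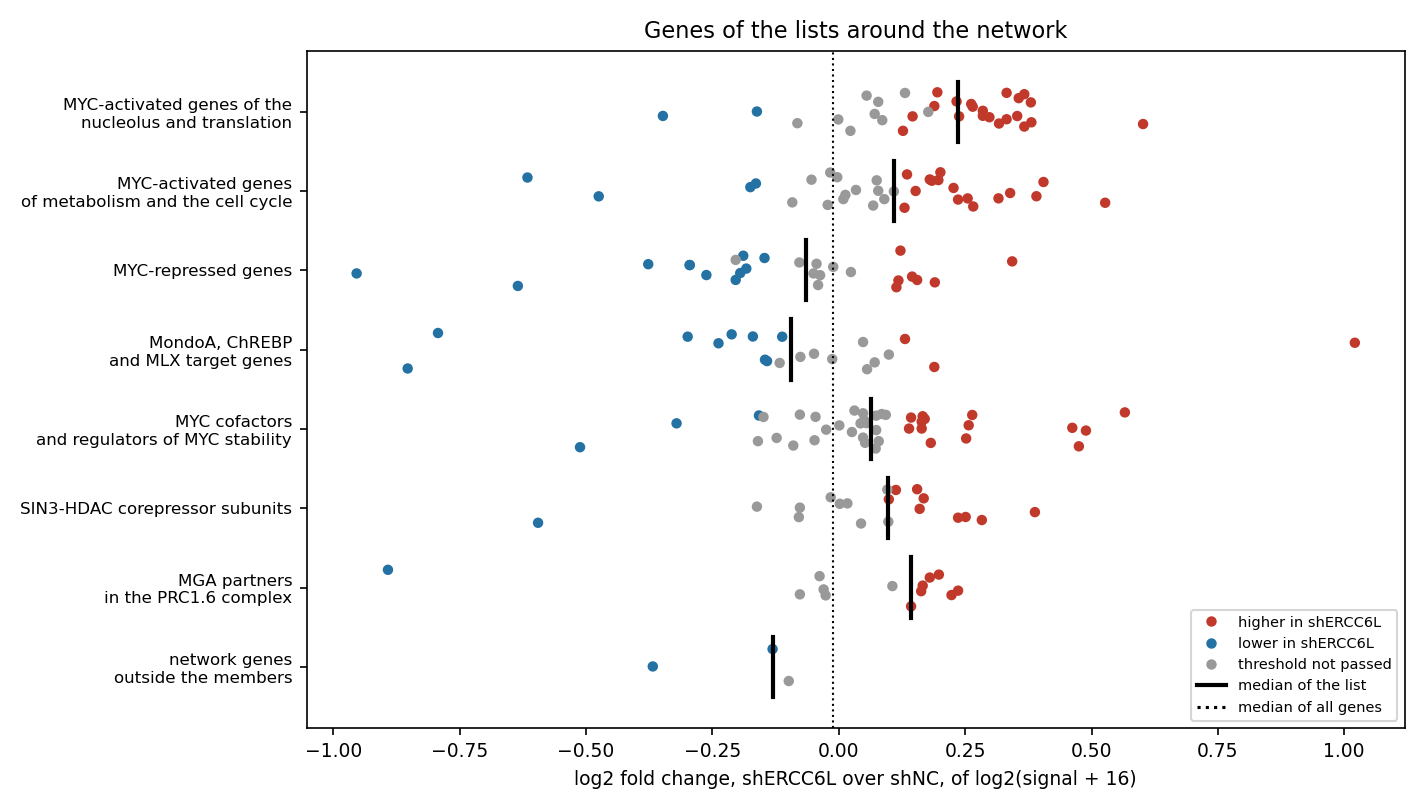
Log2 fold change of log2(signal + 16), shERCC6L over shNC, of each measured gene (points) of the 8 lists, with the median of each list as a black bar and that of all genes as a dotted line; red points were higher and blue points lower at an adjusted p of 0.05. The median of the nucleolus and translation list was 0.235 and that of the MondoA, ChREBP and MLX target list -0.094, and the vertical scatter has no meaning.

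Among 40 genes for cofactors of MYC and regulators of its stability, 14 were higher (35%) and 3 lower (7.5%), with a median log2 change of 0.064. Of the 40, 37 were brighter genes, and the share that was higher lay near the 32.8% of all brighter genes. AURKA, a mitotic kinase that protects MYCN from breakdown, rose by 0.57 ± 0.04 (SE). RUVBL1 and RUVBL2, paired ATPases of the TIP60 and other remodelling complexes that bind MYC, rose by 0.49 ± 0.04 and 0.46 ± 0.03. ELAVL1, an RNA-binding protein that binds the MYC mRNA, fell by 0.51 ± 0.03. FBXW7, the ligase subunit that marks MYC for breakdown, rose by 0.26, and the kinase genes GSK3B and PIM1 fell by 0.16 and 0.32. With probe sets averaged GSK3B did not pass (adjusted p = 0.057). The count of 3 lower was 6 without shNC replicate 2.

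For the SIN3-HDAC corepressor, through which MXD proteins act, 9 of 19 subunit genes were higher (47.4%) and 1 lower (5.26%), with a median log2 change of 0.098. The 1 that fell was SAP130, with 217.2, 206.1 and 216.5 in shERCC6L and 334.3, 326.1 and 330.5 in shNC (log2 fold change -0.60 ± 0.04, adjusted p = 3.6e-06). ING2, a reader of methylated histone H3, rose by 0.39 ± 0.04 (SE), PHF12 by 0.28 ± 0.03 and the deacetylase gene HDAC1 by 0.24 ± 0.04. With probe sets averaged PHF12, at 0.04, did not pass, while ING2 was at 0.23 and HDAC1 at 0.156. The scaffold gene SIN3A rose by 0.25, while SIN3B, at 0.00, did not pass. The count of 9 higher was 5 without shERCC6L replicate 2, and that of 1 lower was 2 without shERCC6L replicate 3 or shNC replicate 1.

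Of 13 partners of MGA in PRC1.6, a Polycomb complex, 7 were higher (53.8%) and 1 lower (7.69%), and the median log2 change was 0.143. RYBP, a bridging subunit of Polycomb complexes, was the one that fell, with 277.2, 279.4 and 274.9 in shERCC6L and 519.2, 545.2 and 520.3 in shNC (log2 fold change -0.89 ± 0.04, adjusted p = 3.4e-07). CBX1 rose by 0.22 ± 0.04 (SE) and TFDP1, the partner of E2F6, by 0.20 ± 0.04. YAF2, a paralogue of RYBP, was at 0.14 (adjusted p = 0.030) and did not pass with quantile normalization (0.054), a pseudocount of 1 (0.055), probe sets averaged (0.11) or without shERCC6L replicate 2 or 3 or shNC replicate 1 or 2 (0.067 to 0.097). HDAC1, HDAC2 and WDR5 are counted here and on another list. With quantile normalization 4 members of this list were higher.

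Across the 6 arrays the genes most like MYC, among the 9059 others with a mean level no lower than the median, were VCAM1 (Pearson r = 0.9978), MAF (0.9975) and NEMP2 (0.9975), and those most opposite were GLMN (-0.9983), SLC26A6 (-0.9978) and BAD (-0.9970). The arrays fall into 2 groups, so any gene whose groups stand apart scores high, and these r are a description. VCAM1, an adhesion molecule, fell by 0.25 and the transcription factor gene MAF by 0.85, while BAD, a promoter of apoptosis, rose by 0.36. With probe sets averaged the change of MAF was -0.395 and that of NEMP2 did not pass (-0.09, adjusted p = 0.086).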

How the data were processed

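The authors deposited a table of linear intensities, with 1 value for each probe set and array. Per the submitters' processing notes the tool was Affymetrix Expression Console. Its version, settings and normalization were not given in the sources used here. Deposited arrays already shared a scale. Precision is limited by the number of arrays.

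Of 49395 probe sets, 102 controls were left out. GEO's platform annotation gave the others 1 gene symbol (44988 probe sets), several (1832) or none listed here (2473). By gene number 44961 were found in RefSeq's gene table (GRCh38.p14), which gave positions and changed no symbol. Signals became log2(signal + 16), which understates changes of dim genes. Groups were compared in R 4.3.3 by limma 3.58.1 (lmFit, eBayes, 2-sided). Member probe sets were fitted with all 49293 probe sets, and lists with the probe set of highest mean of each of 18132 genes. P-values were adjusted by Benjamini-Hochberg at a threshold of 0.05. In data simulated on the probe sets, 50 changes of each size were placed, only on probe sets at or above the median level. Of these, 56% of changes of 0.25, 76% of 0.5 and all 50 of 1 on the log2 scale were recovered. Far fewer probe sets changed there than passed in the data. No changes were placed on dimmer probe sets, so these rates do not cover the 21 member probe sets below the median level.

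The members, the 8 lists, the alternatives and the rule for which genes are named were chosen with earlier results of these data known. The rule names every member probe set, the 4 genes of smallest p per list, the network genes outside the members, and the 3 genes most and 3 least like MYC. Others were named after their values were seen. List genes without a value were not analysed here. Alternatives were the replicate number as a block, median centring, quantile normalization, pseudocounts of 1 and 64, leaving out features below the lower quartile of level, a variance trend with robust fitting, weights per array, averaging or taking 1 probe set per gene, and leaving out each array.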

Additional observations from a re-analysis of the deposited data

How the results depend on the processing

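The labels do not say that same-numbered arrays are pairs, so they were not treated as pairs. Correlations of their deviations were 0.24, -0.14 and -0.01. Differently numbered arrays were not compared in this way, so these values cannot exclude pairing. With a replicate block 12 member probe sets were higher and 4 lower, and MYC minus MAX was -0.74 (exact sign-flip p = 0.25, the smallest that 3 pairs allow). This p-value was likewise fixed by the separate values of MYC and MAX. With 1 probe set per gene, by brightest or by mean, 2 members were higher and 2 lower (MAX and MLX, MYC and MXD3), near the shares of all genes (18.2% and 13.4% by brightest, 19.9% and 14.2% by mean). Without probe sets ending in _x_at or _s_at, which can match transcripts of more than 1 gene, 6 of 30 were higher and 3 lower. That alternative was chosen after seeing the data. It left out the brightest MAX probe set, 11740748_s_at, which was used for MYC minus MAX. The MAX rises that remained were those of 11729188_a_at (log2 fold change 0.405) and 11729190_a_at (0.513). With either of them in place of 11740748_s_at, MYC minus MAX was lower in shERCC6L as well. MYC minus MAX was -0.52 with probe sets averaged and -0.79 to -0.68 when each array was left out. Quantile normalization gave 2 lower SIN3-HDAC genes and 4 higher MGA partners. A pseudocount of 1 gave 1 lower gene of the nucleolus and translation list and 3 higher MYC-repressed genes. A pseudocount of 64, the intensity trend and array weights each gave 2 lower SIN3-HDAC genes, and array weights 5 lower MYC cofactors. Averaging gave 5 lower MondoA, ChREBP and MLX targets and 3 lower SIN3-HDAC genes. When each array was left out, counts ran from 1 to 2 for lower nucleolus and translation genes (1 without shERCC6L replicate 2 or 3 or shNC replicate 1 or 2), 2 to 6 for higher MYC-repressed genes, 5 to 8 for higher and 1 to 2 for lower SIN3-HDAC genes, 3 to 6 for lower MYC cofactors, and 1 to 4 for higher and 5 to 9 for lower MondoA, ChREBP and MLX targets. Averaging and fewer arrays change what is tested, and for the other alternatives the cause was not tested. The calls of MYC, the brightest MXD3 probe set, and the 7 MAX and 5 MLX probe sets held in all 14 alternatives run on single probe sets. Among probe sets that did not pass, 1 of MYCL (adjusted p = 0.034 with the replicate block), 1 of MLX and 1 of MAX (0.033 and 0.038 with median centring) passed under some alternatives. Depth of signal limits MYCN, MYCL and MXD1, whose level above background is unknown.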

Other observations

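A pair of probe sets lists both RAB24, a neighbouring gene of the Rab family, and MXD3, and was therefore no member. The first had 117.2, 126.0 and 128.7 in shERCC6L and 136.4, 131.6 and 126.8 in shNC, so that the groups overlapped (log2 fold change -0.08, adjusted p = 0.24). The other had 207.3, 206.2 and 197.6 in shERCC6L and 205.8, 204.7 and 204.0 in shNC, with a log2 fold change of -0.01. Neither showed the fall of the brightest MXD3 probe set.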
